A study of Rattus norvegicus with 372 samples.

Results

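Wells of primary rat hepatocytes that received culture medium alone were compared with wells that received the DMSO vehicle (0.5%) for 24 h. All wells of the study labelled as medium or vehicle were taken, which gave 36 of 372 libraries. Of these, 18 were from the whole-transcriptome (WT) TempO-Seq assay and 18 from the smaller surrogate (ST) assay, run on the same lysates. In batch 1 there were 3 medium and 3 vehicle wells, all on plate 4, and in batch 2 there were 6 and 6, with 3 of each on plate 2 and plate 3. The cells came from male Wistar rats and were kept between collagen layers in William's medium E with insulin, dexamethasone and EGF, which all the wells shared. Each batch was made from the hepatocytes of 1 rat, so the wells of a batch are technical replicates, and p-values within a batch measure the spread between wells only. The labels give the vehicle wells 0.5% DMSO and the medium wells no chemical and no concentration. A treatment text shared by all samples names the 0.5% DMSO, and the methods do not describe the medium wells, so they were read here as medium without DMSO.

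Dimethyl sulfoxide is the usual solvent for test chemicals in cell culture, and responses to a chemical are read against wells with the solvent. It also acts on cells by itself, and at higher levels it has long been used to keep cultured hepatocytes differentiated. TempO-Seq counts ligated pairs of detector oligos hybridized to RNA in crude lysate, so each value belongs to a probe rather than to a whole transcript. Hepatocytes make fatty acids from glucose when insulin is present, export lipid in lipoproteins and secrete plasma proteins and chemokines.

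Total reads per WT library were between 5492941 and 8601738 in batch 1. In batch 2 they were between 2289425 and 7818048, where the lowest value was a single medium well on plate 2. ST libraries held between 882871 and 1695479 reads. Levels below are CPM in the WT assay, the reads of a probe scaled to a library of 1000000 reads after TMM normalization. Levels and sums of the cell type markers are the exception and are CPM without TMM factors. L2FC is the log2 fold change of vehicle over medium, given with its standard error (SE), and a positive value means a higher level with DMSO. A probe was called a DEG at a Benjamini-Hochberg adjusted p below 0.05 in the quasi-likelihood test of edgeR. The hepatocyte markers (albumin, transthyretin, Apoa1, Hnf4a, Cps1 and Asgr1) summed to between 32960 and 35490 CPM in medium and between 27730 and 31870 CPM in vehicle in batch 1, which did not overlap. In batch 2 the sums overlapped, at 33520 to 41950 CPM in medium and 31380 to 36580 CPM in vehicle, and 5 of the 6 markers had a negative L2FC in both batches. The 8 endothelial markers summed to at most 4.8 CPM, and the 13 Kupffer cell and leukocyte markers to between 107.8 and 196.1 CPM.

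Among the probes called in the WT assay more were lower than higher with DMSO, and those called in both batches moved the same way in each. Of 10689 probes tested in the WT assay, 140 (1.31%) were DEGs in batch 1, with 27 (0.253%) higher and 113 (1.06%) lower in vehicle. In batch 2, with 6 wells a group in place of 3, 1449 (13.6%) were DEGs, with 569 (5.32%) higher and 880 (8.23%) lower. There were 118 probes (1.10% of those tested) that were DEGs in both batches with the same sign, 21 of them higher (0.196%) and 97 lower (0.907%), and 0 with opposite signs. They made up 84.3% of the DEGs of batch 1 and 8.14% of those of batch 2. Of the 140 DEGs of batch 1, 137 (97.9%) had the same sign in batch 2, against 69.4% of all probes tested. The absolute L2FC reached 1 in both batches for 33 of the 118. Their medium and vehicle wells did not overlap for 118 of 118 in batch 1 and for 102 of 118 in batch 2. The 118 were chosen on these same values, so that this separation of the wells is largely fixed by the choice and is given as a description. Over all probes tested, which are not independent, Pearson's r between the L2FC of the batches was 0.514. Leaving out 1 well of batch 1 brought the 118 down to between 49 and 89, lowest without the third vehicle well, and leaving out 1 well of batch 2 gave between 112 and 119. There were 40 probes, 6 higher and 34 lower, that were DEGs in both batches whichever of the 18 wells was left out.

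**Figure D1:**
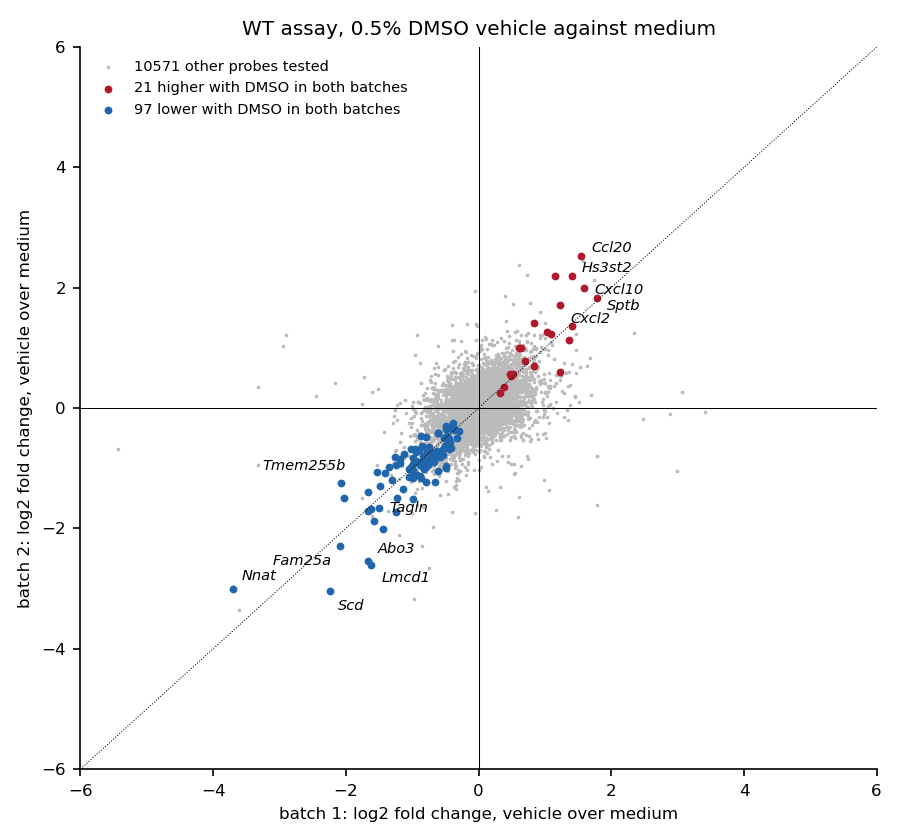
L2FC of vehicle over medium in batch 1 (x axis) against batch 2 (y axis) for the 10689 probes tested in the WT assay, with the 21 probes higher and the 97 lower in both batches in colour and the dotted line marking equal values. The coloured probes lie along the line, with Nnat, Scd and Fam25a at the lower end and Ccl20, Hs3st2, Cxcl10 and Sptb at the upper end.

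Several genes of fatty acid synthesis fell. Of 18 probes of this list tested, 8 were lower with DMSO in both batches and 0 were higher. The L2FC was negative in both batches for 12 and positive in both for 1, and the median L2FC was -0.55 in batch 1 and -0.53 in batch 2, where the medians of all probes tested were 0.0074 and 0.012. Scd, the stearoyl-CoA desaturase that makes monounsaturated fatty acids, changed most. Its level was 72.9, 75.7 and 85.4 CPM in the medium wells of batch 1 and 18.2, 20.9 and 10.2 CPM in the vehicle wells. In batch 2 its lowest, median and highest level was 82.2, 119.3 and 157.3 CPM in medium and 9.38, 13.4 and 21.1 CPM in vehicle. The groups were far apart in both batches, and the L2FC was -2.24 (SE 0.23, adjusted p = 1.42e-10) and -3.04 (SE 0.19, adjusted p = 3.02e-22).

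Enzymes that supply the carbon for fatty acids fell less. Acaca, the acetyl-CoA carboxylase that commits carbon to the pathway, was at 149.6, 155.8 and 207.9 CPM in medium and 98.4, 85.7 and 111.5 CPM in vehicle in batch 1. The wells of batch 2 were at 156.4, 188.6 and 194.7 CPM (lowest, median, highest) in medium and at 63.2, 75.7 and 97.3 CPM in vehicle. The L2FC of Acaca was -0.80 (SE 0.16, adjusted p = 0.00161) and -1.22 (SE 0.14, adjusted p = 5.54e-11). Fasn, the fatty acid synthase, had L2FC of -0.75 (adjusted p = 1.33e-05) and -0.64 (adjusted p = 3.72e-05), and Acly, the citrate lyase that makes cytosolic acetyl-CoA, had -0.74 (adjusted p = 2.83e-06) and -0.66 (adjusted p = 3.26e-11). Thrsp (Spot 14), a lipogenic regulator, was at 178.1, 202.5 and 252.2 CPM in medium against 93.5, 115.1 and 109.4 CPM in vehicle in batch 1. Its L2FC was -0.99 (adjusted p = 5.76e-05) and -1.16 (adjusted p = 1.06e-09). The other members lower in both batches were Pklr, the liver pyruvate kinase (-0.99 and -1.04), Lpin1, a phosphatidate phosphatase (-0.79 and -0.98), and Scd2, a second desaturase (-1.25 and -0.95). Srebf1, which encodes the transcription factor SREBP1 of this pathway, had L2FC of -0.50 (adjusted p = 0.0837) in batch 1 and -0.62 (adjusted p = 5.92e-06) in batch 2, so it passed the threshold in batch 2. The count of 8 fell to between 4 and 6 when 1 well of batch 1 was left out, lowest without the third medium well, and to between 7 and 8 for wells of batch 2. Scd, Thrsp, Acly and Fasn remained DEGs in both batches whichever well was left out.

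A few genes of lipid handling were lower in both batches. Plin2, a coat protein of lipid droplets, was at 510.6, 547.6 and 528.5 CPM in medium and 310.0, 286.4 and 300.0 CPM in vehicle in batch 1. In batch 2 it was between 519.3 and 559.7 CPM in medium (median 538.5) and between 237.9 and 293.9 CPM in vehicle (median 269.2). The wells of a group lay close together, and the L2FC was -0.82 (SE 0.12, adjusted p = 2.72e-06) and -1.01 (SE 0.077, adjusted p = 1.86e-17). Plin2 was the 1 PPAR alpha target of 40 probes tested to be a DEG in both batches. With the wells of low chemical concentration as the DMSO group, 26 of this list were higher and 1 lower in both batches, against 0 and 1 here. Of 19 probes for apolipoproteins and lipoprotein assembly, 2 were lower in both batches. These were Angptl8, a secreted regulator of lipoprotein lipase (-0.93 and -1.11), and Tm6sf2, which takes part in the lipidation of very low density lipoprotein (-0.43 and -0.57). The count of 2 fell to 0 without the third vehicle well of batch 1 and to 1 without the second vehicle well or the first or second medium well. In the ST assay 0 of 11 probes of this list were lower and 1 was higher in both batches. G0s2, an inhibitor of triglyceride lipase, is in no list and was picked after its values were seen. Its L2FC was -1.06 (adjusted p = 0.000429) and -1.15 (adjusted p = 9.66e-14). In the cholesterol synthesis list 1 of 20 probes was lower in both batches and 0 were higher. It was Insig1, which holds the SREBP proteins in the endoplasmic reticulum, at -0.48 (adjusted p = 0.0178) and -1.0 (adjusted p = 3.33e-09). In batch 2, 9 of the 20 were lower and 0 higher. This direction turned with the wells of low chemical concentration as the DMSO group, where 1 was lower and 12 were higher in batch 2 and 1 was higher in both. The call of Insig1 in both batches was lost without the first or the third vehicle well or the second or the third medium well of batch 1.

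**Figure D2:**
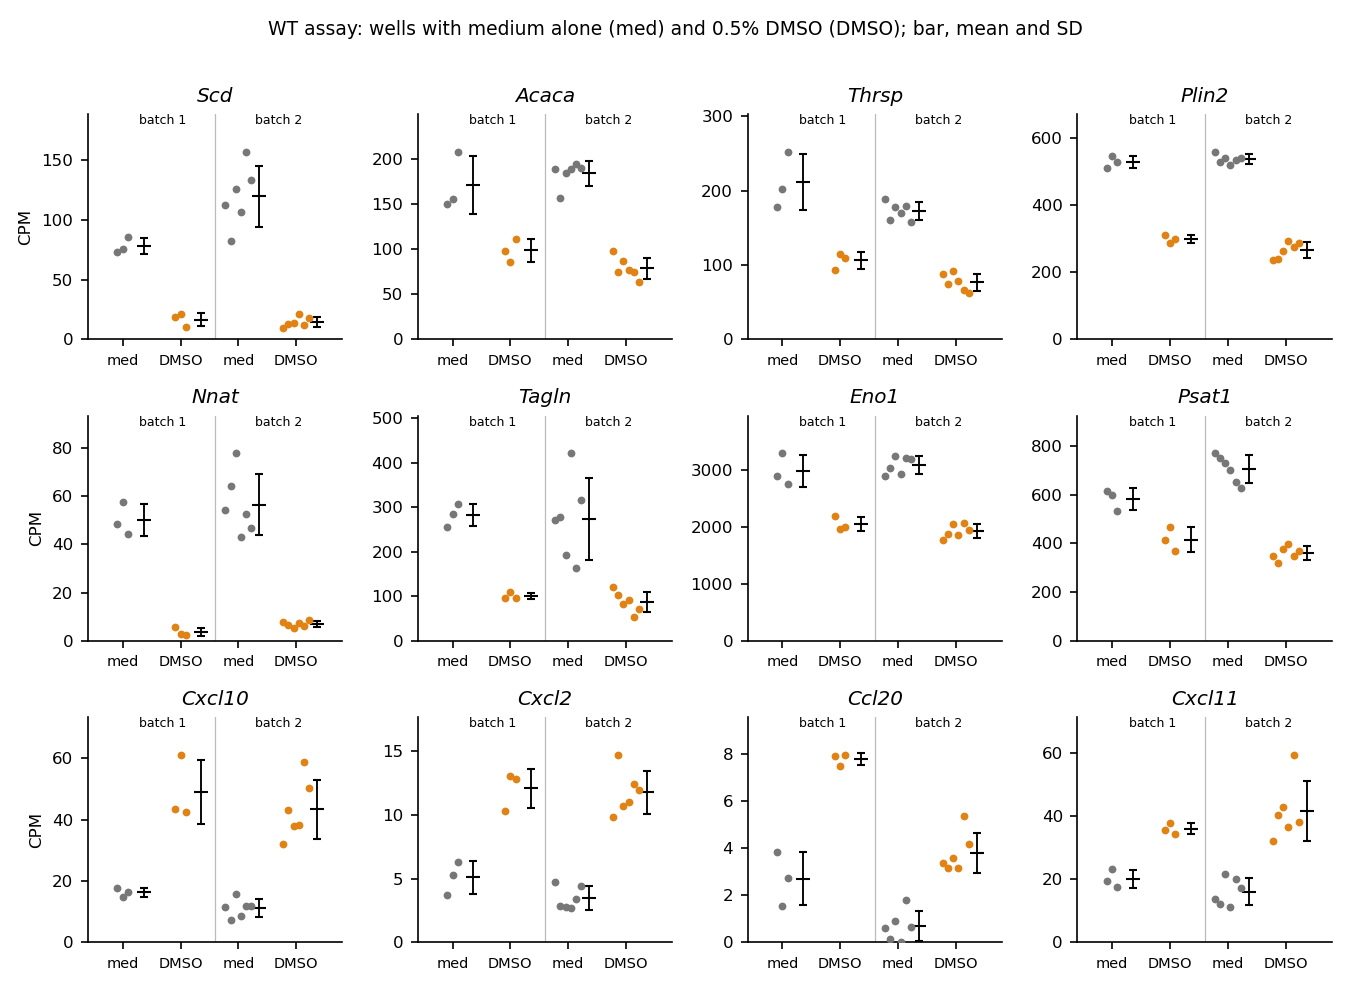
CPM in the WT assay (y axis, from 0) of 12 genes in each well with medium alone (grey) or DMSO vehicle (orange), batch 1 left and batch 2 right in each panel, with the mean and SD of the group in black beside the points. The wells of the groups do not overlap within a batch for any of the 12, with 8 genes lower with DMSO in the upper rows and 4 chemokine genes higher in the bottom row.

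Glycolytic genes and targets of the hypoxia factor HIF mostly had a negative L2FC in the WT assay, and more of them passed the test in batch 2 than in batch 1. L2FC was negative in both batches for 26 of 27 probes of this list, where 3556 of all 10689 probes were negative in both. Of the 27, 3 were DEGs in batch 1 and 15 in batch 2, all lower, and the median L2FC was -0.37 and -0.49. Eno1, the glycolytic enolase, was at 2905, 3300 and 2767 CPM in medium and 2198, 1973 and 1997 CPM in vehicle in batch 1, with an L2FC of -0.54 (SE 0.13, adjusted p = 0.0158). In batch 2 its L2FC was -0.68 (SE 0.068, adjusted p = 1.55e-12). Adm, the vasodilator peptide adrenomedullin, fell by 0.81 on the log2 scale in both batches (adjusted p = 0.0032 and 8.45e-05). Egln3, a prolyl hydroxylase that marks HIF for degradation, had L2FC of -0.96 (adjusted p = 0.0134) and -0.68 (adjusted p = 0.00515). Members called in batch 2 included Gpi (-0.72), the isomerase of the second glycolytic step, Ddit4 (-0.85), an inhibitor of mTORC1, and Aldoa (-0.45 and -0.47 for its probes). The count of 3 in both batches fell to 1 without the second or the third vehicle well or the second medium well of batch 1. In the ST assay the list was near 0 in batch 1, with a median L2FC of -0.038 over 15 probes and of -0.60 in batch 2. Of these 15, 8 were negative and 2 positive in both batches, 1 was lower in both, 12 were lower in batch 2, and the interaction passed for 2.

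Targets of ATF4, the transcription factor of amino acid stress, behaved likewise in batch 2. Of 28 probes, 16 were lower and 0 higher there, and the median L2FC was -0.33 in batch 1 and -0.54 in batch 2. Psat1, an aminotransferase of serine synthesis, was the member called in both batches. It was at 615.7, 596.5 and 532.0 CPM in medium and 411.8, 466.7 and 367.7 CPM in vehicle in batch 1, with an L2FC of -0.49 (SE 0.12, adjusted p = 0.0219). In batch 2 its L2FC was -0.97 (SE 0.076, adjusted p = 5.37e-17). Its call in both batches was lost without the first or the third vehicle well or the first or second medium well of batch 1. Trib3, a pseudokinase, had L2FC of -0.39 (adjusted p = 0.234) in batch 1 and -0.86 (adjusted p = 3.56e-10) in batch 2. The hepatokine Fgf21 had -0.55 (adjusted p = 0.294) and -0.90 (adjusted p = 6.34e-07). No probe for endoplasmic reticulum chaperones (18 tested) or cytosolic heat shock proteins (14 tested) was a DEG in either batch of the WT assay by edgeR with all wells and the count filter. Their median L2FC lay between -0.10 and 0.046. With only medium and vehicle wells in the fit, 1 chaperone probe was lower and 2 heat shock probes were higher and 1 lower in batch 2, and without the count filter 1 heat shock probe was higher. On plate 2 alone 1 chaperone probe was lower, and leaving out 1 well of batch 2 gave at most 1 higher heat shock probe. The wells of low chemical concentration in place of vehicle gave 7 higher and 2 lower chaperone probes and 2 higher and 6 lower heat shock probes in batch 2. In batch 2 of the ST assay 2 of 9 heat shock probes were higher, and of 11 chaperone probes 1 was higher and 1 lower. Of all ST probes tested, 12.9% were higher and 17.4% lower in that batch.

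Several genes of actin-binding proteins were lower with DMSO. Of 42 probes in the list of cytoskeleton genes and targets of serum response factor, 3 were lower in both batches and 0 higher. L2FC was negative in both for 26 of them, where 3556 of all 10689 probes were negative in both. Tagln (transgelin), an actin-binding protein of contractile cells, was at 255.9, 285.7 and 306.2 CPM in medium and 95.5, 108.9 and 96.5 CPM in vehicle in batch 1. In batch 2 it ranged from 163.9 to 420.8 CPM in medium (median 274.3) and from 54.1 to 120.4 CPM in vehicle (median 86.8). The medium wells of batch 2 spread widely but lay above all vehicle wells, and the L2FC was -1.50 (SE 0.27, adjusted p = 0.000207) and -1.66 (SE 0.24, adjusted p = 1.76e-07). Cnn2, a calponin, had L2FC of -0.80 and -0.84, and Actn1, the crosslinker alpha-actinin, had -0.48 and -0.46. In batch 2, 12 members were lower, among them Vim (vimentin, -0.67) and Srf itself (-0.64), and 3 were higher, which were 2 probes of the actin monomer binder Tmsb10 (0.58 and 0.63) and the keratin Krt18 (0.41). The count of 3 in both batches fell to between 1 and 2 when any well of batch 1 other than the third medium well was left out. The ST assay did not lean one way for this list, with 11 of 26 probes positive and 9 negative in both batches, 2 lower in both, 5 higher and 6 lower in batch 2, and a median L2FC of -0.034 and 0.067. Other actin or muscle genes among the 15 largest decreases were Xirp2, an actin-binding repeat protein (-1.57 and -1.88), Nexn (nexilin, -1.67 and -1.40) and Lmcd1, a LIM domain cofactor (-1.62 and -2.61).

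Some chemokine genes rose. Of 21 probes for chemokines and feedback genes of NF-kB, 4 were higher in both batches and 0 lower, and L2FC was positive in both batches for 20, where 3864 of all 10689 probes were positive in both. The median L2FC was 0.45 and 0.53. In batch 2, 14 were higher and 1, Nfkb1 (-0.28), was lower. Cxcl10, a ligand of the receptor CXCR3 on T cells, was at 17.8, 14.7 and 16.5 CPM in medium and 43.4, 61.1 and 42.6 CPM in vehicle in batch 1. In batch 2 it was at 7.33, 11.7 and 15.8 CPM (lowest, median, highest) in medium and at 32.1, 40.6 and 58.8 CPM in vehicle. All vehicle wells were above all medium wells, with an L2FC of 1.59 (SE 0.23, adjusted p = 3.51e-06) and 2.00 (SE 0.39, adjusted p = 8.25e-05).

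Its neighbour Cxcl11, which binds the same receptor, was at 19.6, 23.3 and 17.7 CPM in medium and 35.8, 38.0 and 34.5 CPM in vehicle in batch 1, and its L2FC was 0.83 (adjusted p = 0.0341) and 1.41 (adjusted p = 0.000849). Cxcl2, a neutrophil attractant, was at 3.69, 5.28 and 6.32 CPM in medium and 10.3, 13.1 and 12.8 CPM in vehicle in batch 1, with L2FC of 1.23 (adjusted p = 0.000429) and 1.72 (adjusted p = 2.28e-08). Ccl20, the ligand of CCR6, was low, at 3.84, 1.56 and 2.73 CPM in medium and 7.91, 7.49 and 7.96 CPM in vehicle in batch 1. Batch 2 had between 0 and 1.78 CPM in medium and between 3.14 and 5.37 CPM in vehicle, and its L2FC was 1.54 (adjusted p = 0.0172) and 2.52 (adjusted p = 8.11e-06). Cxcl10 and Cxcl2 remained DEGs in both batches whichever well was left out, and the count of 4 fell to between 2 and 3 without any 1 well of batch 1. Ltb, the membrane ligand lymphotoxin beta, also rose, with L2FC of 1.09 (adjusted p = 0.00166) and 1.22 (adjusted p = 6.46e-05).

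The promoters of these 4 chemokine genes are shown because the genes moved together. Each is the 250 bases before the start of the gene in RefSeq on GRCr8, 5′ to 3′ on the strand of the gene, with matches on either strand to 2 motifs in capitals. The first, a form of the NF-kB site, is GGG, any 2 bases and TTTCC, and the other, the core of the interferon-stimulated response element, is GAAA, any 2 bases and GAAA. All 4 genes were found in the promoter table. The NF-kB motif is in 1.3% and the interferon motif in 3.41% of 33469 promoters of this length, and matches to the motifs did not overlap each other.
Cxcl10, chr14:15988816-15989065, plus strand: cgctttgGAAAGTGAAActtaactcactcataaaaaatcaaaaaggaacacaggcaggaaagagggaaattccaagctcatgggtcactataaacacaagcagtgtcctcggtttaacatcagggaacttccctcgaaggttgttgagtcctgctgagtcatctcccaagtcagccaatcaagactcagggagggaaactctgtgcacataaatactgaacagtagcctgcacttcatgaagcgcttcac
Cxcl11, chr14:15973478-15973727, plus strand: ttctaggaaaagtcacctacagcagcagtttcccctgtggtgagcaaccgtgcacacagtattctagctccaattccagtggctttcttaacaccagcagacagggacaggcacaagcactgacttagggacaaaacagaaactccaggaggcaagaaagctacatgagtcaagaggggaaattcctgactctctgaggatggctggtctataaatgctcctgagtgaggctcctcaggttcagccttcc
Cxcl2, chr14:17467256-17467505, minus strand: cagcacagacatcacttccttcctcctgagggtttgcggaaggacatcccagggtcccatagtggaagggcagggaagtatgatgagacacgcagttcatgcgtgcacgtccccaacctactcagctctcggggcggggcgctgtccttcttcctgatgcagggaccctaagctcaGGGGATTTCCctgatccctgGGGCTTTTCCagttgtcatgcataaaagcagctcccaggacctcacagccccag
Ccl20, chr9:91836909-91837158, plus strand: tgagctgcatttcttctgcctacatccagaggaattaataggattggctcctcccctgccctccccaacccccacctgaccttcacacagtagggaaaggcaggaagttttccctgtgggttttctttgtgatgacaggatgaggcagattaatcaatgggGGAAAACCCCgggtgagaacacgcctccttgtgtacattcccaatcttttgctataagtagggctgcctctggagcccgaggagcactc
The window of Cxcl10 held 1 match to the interferon motif, that of Cxcl2 held 2 matches to the NF-kB motif and that of Ccl20 held 1, while the window of Cxcl11 held 0 of either. Other forms of these sites were not searched for, so a window without a match may still hold one.

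Among interferon-stimulated genes, Irf1, a transcription factor induced by interferon, was the member higher in both batches, a call that was lost without the third medium well of batch 1. It was at 43.6, 46.8 and 37.8 CPM in medium and 60.6, 59.0 and 58.2 CPM in vehicle in batch 1, with L2FC of 0.47 (SE 0.10, adjusted p = 0.00348) and 0.56 (SE 0.088, adjusted p = 1.14e-06). Isg15, a ubiquitin-like protein, was a DEG in batch 1 with an L2FC of 2.89 (adjusted p = 0.0242), but this rested on 1 vehicle well at 111.3 CPM. The other vehicle wells were at 6.86 and 6.99 CPM and the medium wells at 7.67, 4.68 and 4.31 CPM, and without that well the L2FC was 0.32 (adjusted p = 0.92). In batch 2 the L2FC of Isg15 was -0.11 (adjusted p = 0.927). The same well, the second vehicle well of batch 1, had the highest level of the 6 wells for 11 of the 18 probes of the list, such as Usp18 (9.06 CPM against 1.28 and 1.3 in the other vehicle wells) and Irf7 (15.9 against 4.30 and 7.47). The median L2FC of the list in batch 1 was 0.48 with that well and 0.13 without it. The L2FC of the chemokine list had a median between 0.37 and 0.57 whichever well of batch 1 was left out.

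Genes of DNA replication mostly had a positive L2FC and a low level. L2FC was positive in both batches for 21 of 26 probes of the cell cycle list, where 3864 of all 10689 probes were positive in both. The median of the list was 0.27 and 0.36, against 0.0074 and 0.012 for all probes. Cdc6, which loads the replicative helicase, was the member called in both batches, at 1.56, 1.44 and 0.86 CPM in medium and 3.49, 3.66 and 3.25 CPM in vehicle in batch 1. Its L2FC was 1.41 (adjusted p = 0.021) and 1.36 (adjusted p = 0.0357). This call was lost without any 1 well of batch 1 other than the first medium well, without some single wells of batch 2, and on either plate of batch 2 alone. Mcm5, a subunit of that helicase, was higher in batch 1 (1.24, adjusted p = 0.00549), with 0.53 in batch 2 (adjusted p = 0.38). Of 23 ST probes of this list, 14 were positive and 0 negative in both batches. In that assay 2 were called higher in batch 1, and 0 were called in batch 2 or in both.

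Abcb11, the bile salt export pump of hepatocytes, was lower in both batches. Its level was at 145.2, 156.7 and 141.7 CPM in medium and 86.3, 74.2 and 69.5 CPM in vehicle in batch 1. The groups did not overlap in either batch, with L2FC of -0.95 (SE 0.15, adjusted p = 1.33e-05) and -0.73 (SE 0.099, adjusted p = 3.98e-08).

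The lists of drug-metabolizing enzymes had 1 call each in both batches, where 0.907% of all probes tested were lower in both and 0.196% higher. In batch 2, 8.23% of all probes were lower and 5.32% higher. Of 22 probes for targets of CAR, PXR and AhR, 1 (Cyp3a9) was lower in both batches, and in batch 2, with Cyp3a9 counted, 5 were lower and 2 higher. Of 20 probes for constitutive CYP2 and FMO enzymes, 1 (Cyp2c11) was lower in both, and in batch 2, with Cyp2c11 counted, 3 were lower and 1 higher. For these lists 0 of 21 and 0 of 13 ST probes were called in both batches, with 5 higher and 5 lower of the 21 and 2 lower of the 13 in batch 2. Of all ST probes tested, 12.9% were higher and 17.4% lower there. Cyp3a9 was at 57.5, 64.0 and 56.2 CPM in medium and 34.1, 35.7 and 29.1 CPM in vehicle in batch 1, with L2FC of -0.85 (adjusted p = 0.000362) and -0.63 (adjusted p = 0.000941). Cyp2c11, the main form of male rat liver, had -0.66 (adjusted p = 0.0308) and -1.24 (adjusted p = 1.61e-07). The call of Cyp2c11 in batch 1 was lost without any 1 well of that batch other than the second medium well. The probes for Cyp1a1, Cyp1a2, Cyp2b1, Cyp2b2, Cyp2b3 and the Cyp4a genes were DEGs in neither batch. Cyp1a2, which metabolizes caffeine, had L2FC of -0.51 (SE 0.26, adjusted p = 0.47) and -0.38 (SE 0.15, adjusted p = 0.0787). Cyp2e1, for which small solvents are substrates, was low, between 1.71 and 3.60 CPM in batch 1 and between 3.52 and 11.6 CPM in batch 2, with L2FC of 0.53 (SE 0.40, adjusted p = 0.667) and -0.35 (SE 0.27, adjusted p = 0.443). Hsd17b2, which inactivates estradiol and testosterone, was lower at -1.36 (adjusted p = 2.72e-06) and -0.98 (adjusted p = 1.42e-05).

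Hepatocyte identity genes moved in both directions in batch 2, where 8.23% of all probes tested were lower and 5.32% higher. Of 26 probes for identity factors, 5 were lower and 3 higher there and 0 were DEGs in batch 1. Of 34 probes for secreted and metabolic markers, 9 were lower and 4 higher in batch 2. Asgr1, a subunit of the asialoglycoprotein receptor, had L2FC of -0.80 (SE 0.25, adjusted p = 0.092) and -1.06 (SE 0.17, adjusted p = 2.82e-06), with no overlap between the groups in either batch. Alb had L2FC of -0.28 (SE 0.16, adjusted p = 0.548) and -0.18 (SE 0.081, adjusted p = 0.129), and the transcription factor Hnf4a had -0.28 (SE 0.19, adjusted p = 0.608) and -0.28 (SE 0.12, adjusted p = 0.0996). Among acute phase proteins, 5 of 24 WT probes were higher in batch 2 and 0 in batch 1, and the fibrinogen chain Fga had L2FC of 0.60 (adjusted p = 0.401) and 0.86 (adjusted p = 2.58e-05). In the ST assay Fga was higher in both batches, at 0.87 (adjusted p = 0.0401) and 0.73 (adjusted p = 0.00037), and 9 of 18 acute phase probes were higher and 1 lower in batch 2. Of 19 osmotic stress probes, 7 were higher in batch 2 and 0 in batch 1, such as the kinase Sgk1 (0.41, adjusted p = 0.623, and 0.72, adjusted p = 0.0199). The count of 7 fell to 2 without the second medium well of batch 2, to 4 without any of 3 other wells of that batch (vehicle well 3, medium wells 3 and 4), to 2 on plate 2 alone and to 1 on plate 3 alone. Of 5 ST probes of this list, 0 were higher and 1 was lower in batch 2.

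A few enzymes of redox and sulfur metabolism were lower. Of 27 probes for NRF2 antioxidant genes 2 were lower in both batches, Tkt and Gclc, and of 26 for sulfur and methionine metabolism also 2, Csad and Gclc. In batch 2, 5 were lower and 1 higher in the first list and 7 lower and 2 higher in the other, whose median L2FC was -0.013 in batch 1 and -0.042 in batch 2. Of all probes tested, 0.907% were lower in both batches, and 8.23% were lower and 5.32% higher in batch 2. Tkt, the transketolase of the pentose phosphate pathway, was at 1281, 1325 and 1256 CPM in medium and 952.4, 923.3 and 959.2 CPM in vehicle in batch 1. The change was small beside a narrow spread, with L2FC of -0.45 (SE 0.064, adjusted p = 2.72e-06) and -0.67 (SE 0.063, adjusted p = 9.94e-14). Gclc, a subunit of the first enzyme of glutathione synthesis, had -0.52 (adjusted p = 0.021) and -0.49 (adjusted p = 0.000317), and Csad, which makes hypotaurine, had -0.79 (adjusted p = 0.0139) and -0.97 (adjusted p = 3.85e-08). The sulfur count of 2 fell to 0 without the third vehicle or second medium well of batch 1 and to 1 without the first or second vehicle well, and the NRF2 count fell to 1 without any vehicle well or the second medium well. In the ST assay 0 probes of either list were called in both batches. Of 22 ST probes for NRF2 genes, 9 were positive and 6 negative in both batches, with a median L2FC of 0.097 and 0.012. Of 12 for sulfur metabolism, 5 were positive and 2 negative in both, with a median of 0.040 and 0.12. In batch 2, 3 were higher and 5 lower of the 22, and 3 higher and 2 lower of the 12. Msra, a methionine sulfoxide reductase and so an enzyme that can take DMSO itself as a substrate, had -0.23 (SE 0.099, adjusted p = 0.331) and -0.36 (SE 0.072, adjusted p = 0.000122). Sqstm1, the autophagy receptor p62, had -0.70 and -0.86 (adjusted p = 0.0164 and 5.75e-08).

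A few transcription factors of early responses and of the clock were lower. Of 24 immediate early probes 2 were lower in both batches. The calls of batch 2 were these 2 and 2 that were higher (Dusp5, a phosphatase, and Egr1), and the median L2FC there was 0.081. Of 18 clock probes 1 was lower in both batches. Fosl2, a member of the AP-1 family, had L2FC of -0.68 and -0.87, Klf10, a TGF beta-inducible repressor, had -0.45 and -0.51, and Bhlhe40, a clock repressor, had -0.76 and -0.92, all DEGs in both batches. The immediate early count fell to 0 without the first or the third vehicle well or the first medium well of batch 1 and to 1 without any other well of that batch. The clock count fell to 0 without the first or the third vehicle well or the first or second medium well. Lamb3, a laminin chain, was at 31.2, 33.5 and 30.0 CPM in medium and 11.7, 12.7 and 11.4 CPM in vehicle in batch 1. Its L2FC was -1.40 (adjusted p = 0.000675) and -1.08 (adjusted p = 6.79e-07).

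**Figure D3:**
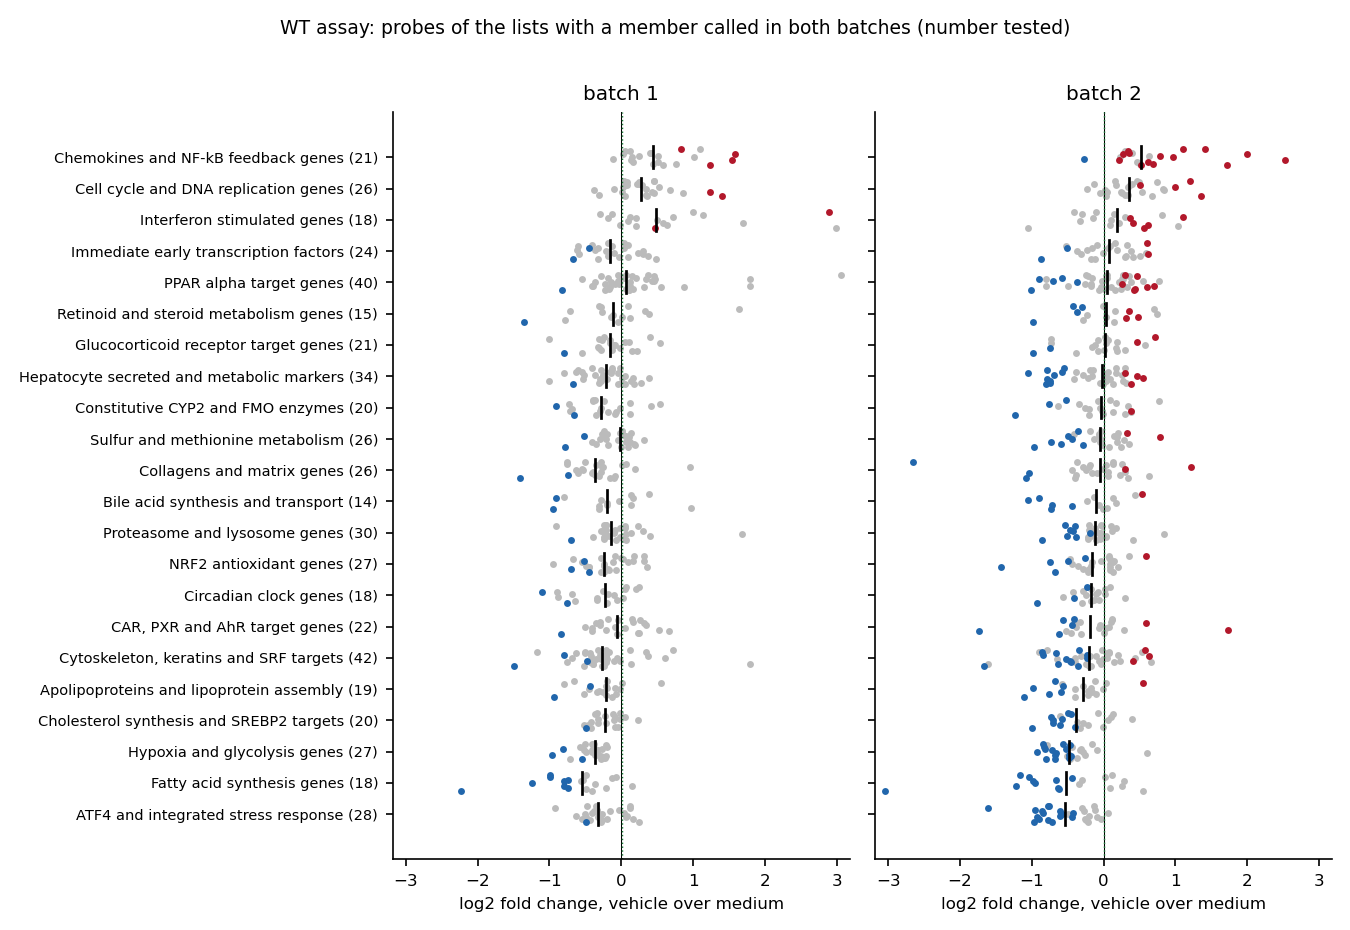
L2FC of vehicle over medium (x axis) of each probe in the 22 lists with a member called in both batches (rows, number of probes tested in parentheses), batch 1 left and batch 2 right. Red and blue points are DEGs of that batch, grey points are not, black bars are list medians and the dotted line is the median of all probes; the lists of fatty acid synthesis and of hypoxia and glycolysis lie to the left and the chemokine list to the right in both panels.

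Of the 118 probes, 79 belonged to none of the 34 lists. The largest decrease was that of Nnat (neuronatin), a small membrane protein of the endoplasmic reticulum. It was at 48.6, 57.5 and 44.4 CPM in medium and 5.58, 2.96 and 2.60 CPM in vehicle in batch 1, which is 13.0-fold higher in medium. The levels of batch 2 were between 43.1 and 77.8 CPM in medium (median 53.5) and between 5.37 and 8.84 CPM in vehicle (median 7.0). Its L2FC was -3.70 (SE 0.41, adjusted p = 1.67e-09) and -3.0 (SE 0.23, adjusted p = 3.09e-17).

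Fam25a was far more abundant, at 521.2, 535.3 and 503.7 CPM in medium and 98.5, 168.1 and 99.3 CPM in vehicle in batch 1, and its L2FC was -2.09 (adjusted p = 2.83e-06) and -2.30 (adjusted p = 1.96e-14). Abo3, a glycosyltransferase of the ABO family, had -1.67 and -2.54, and Trim80 had -1.45 and -2.01. Havcr1, known as kidney injury molecule 1, was at 10.1, 12.4 and 8.05 CPM in medium and 1.98, 3.14 and 4.71 CPM in vehicle in batch 1, with L2FC of -1.67 (adjusted p = 0.00192) and -1.71 (adjusted p = 0.000531). The remaining members of the 15 largest decreases were LOC689065, Nefl, the light neurofilament, Lman1l, Tmem255b and Gcnt3, with L2FC from -1.24 to -2.07. Of these, Nefl and Gcnt3 had wells that overlapped in batch 2.

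Some of the largest increases outside the lists were in genes of low level. Sptb, the beta-spectrin of the membrane skeleton, was at 0.99, 0.72 and 0.43 CPM in medium and 2.21, 2.61 and 2.76 CPM in vehicle in batch 1. Its L2FC was 1.78 (SE 0.48, adjusted p = 0.0371) and 1.84 (SE 0.27, adjusted p = 3.78e-07). Hs3st2, a sulfotransferase of heparan sulfate, had 1.40 (adjusted p = 0.00723) and 2.2 (adjusted p = 2.1e-06). Others were Paqr4 (1.36 and 1.13), Qpct, which forms N-terminal pyroglutamate (1.03 and 1.26), and Slc22a17, a receptor for lipocalin (0.84 and 0.70). Fgfr4, the receptor by which hepatocytes sense bile acid signals from the gut, was at 41.3, 38.5 and 37.8 CPM in medium and 60.3, 71.1 and 60.6 CPM in vehicle in batch 1, with L2FC of 0.70 (adjusted p = 0.0175) and 0.78 (adjusted p = 1.4e-05). The probes LOC100360316, AABR07028488.1 and AABR07053402.1 carry names without a described function and were higher in both batches, with L2FC between 0.61 and 2.19.

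The difference between the batches was tested as an interaction, and 4 of 10689 probes (0.0374%) passed, none of them among the 118. Without adjustment, 533 had p below 0.05. The count of 4 fell to 0 without the third vehicle or the first medium well of batch 1. Dbp, a clock-controlled transcription factor, was at 65.3, 66.8 and 57.9 CPM in medium and 31.0, 36.8 and 21.0 CPM in vehicle in batch 1, an L2FC of -1.10 (adjusted p = 2.83e-06). In batch 2 it was between 20.2 and 26.6 CPM in medium and between 19.2 and 24.8 CPM in vehicle, an L2FC of -0.08 (adjusted p = 0.743), and the difference of the L2FC was 1.03 (adjusted p = 0.0107). The others were Ahi1 (0.66 in batch 1 and -0.23 in batch 2), Slc20a2, a phosphate transporter (-0.19 and -0.75), and Acnat1, an N-acyltransferase that conjugates fatty acids to amino acids (-0.31 and 0.68).

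The ST assay gave the same directions for those of the 118 probes that it shared. Of its 1781 probes tested, 47 (2.64%) passed in batch 1, 22 (1.24%) higher and 25 (1.40%) lower with DMSO. Batch 2 had 539 (30.3%), 229 (12.9%) higher and 310 (17.4%) lower. There were 34 (1.91%) that passed in both batches with the same sign, 12 (0.674%) higher and 22 (1.24%) lower. With RLE in place of TMM size factors the split was 7 and 22, and in batch 1 it was 13 and 25. With the wells of low chemical concentration as the DMSO group more ST probes were higher than lower, 134 against 111 in batch 1 and 99 against 75 in both batches. The interaction passed for 21 ST probes (1.18%). Of the 118 probes of the WT assay, 34 were also tested in the ST assay under the same probe number. All 34 had the same sign in both batches, and 18 were DEGs in both. The lysates were the same, so this compares the assays and not new cultures. Scd had an L2FC of -1.89 and -2.43 in the ST assay, Cxcl10 had 1.92 and 1.84, Tagln -1.36 and -1.94, Acaca -1.05 and -1.45, and Plin2 -0.71 and -0.72. In the fatty acid synthesis list 4 of 11 ST probes were lower in both batches and 0 were higher. One ST probe, for Id2, an inhibitor of transcription factors of the helix-loop-helix family, was a DEG in both batches with opposite signs (0.49 and -0.46).

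Markers of other cell types were set beside these results. The summed stellate cell and fibroblast markers were between 162.0 and 202.3 CPM in medium and between 241.9 and 325.0 CPM in vehicle in batch 2, and did not overlap. In batch 1 they overlapped, at 355.9 to 387.1 CPM in medium and 385.2 to 413.8 CPM in vehicle. Reln, the most abundant of the 10 with a probe, was, without TMM factors, higher in each vehicle well than in any medium well of its batch. In batch 1 it was between 175.9 and 208.6 CPM in medium and between 213 and 300 CPM in vehicle, and in batch 2 between 112.7 and 151.4 CPM in medium and between 205.6 and 282.7 CPM in vehicle. Col3a1 and Col1a2 were not higher in vehicle in batch 2, with medians of 23.9 against 27.4 CPM and, for its more abundant probe, 15.7 against 18.6 CPM. In batch 1 that Col1a2 probe was between 44.8 and 49.6 CPM in medium and between 25.2 and 32.8 CPM in vehicle. Of the 5 stellate probes tested, 1 was called lower in batch 1 and 1 was called higher in batch 2. The summed cholangiocyte markers were between 29.2 and 33.4 CPM in medium and between 37.7 and 46.2 CPM in vehicle in batch 1, with no overlap, and overlapped in batch 2. These marker levels are without TMM factors, which in batch 1 were 0.970 to 1.017 in medium and 1.043 to 1.101 in vehicle. With the factors, the batch 1 gaps of Reln and of the cholangiocyte sum would be narrower and may close. Of 8 Kupffer cell and leukocyte probes tested, Cd14 was lower in both batches (-0.78 and -0.78). The part of other cell types in the results was not tested, and fewer cells of a type and less RNA per cell cannot be told apart. Positions F11, G10 and G11 of the plates held vehicle in batch 1 and medium in batch 2.

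Against the 28 chemical treatments of each batch, each compared with the same vehicle wells, medium alone had neither the fewest nor the most DEGs. In the WT assay 8 of 28 treatments had fewer DEGs than the 140 of medium in batch 1, and 12 of 28 had fewer than the 1449 in batch 2. In the ST assay it was 9 and 13 of 28. Treatments had 3 wells per batch, while medium had 3 in batch 1 and 6 in batch 2. In batch 1 some of the chemicals were on a plate that held no vehicle or medium wells.

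**Figure D4:**
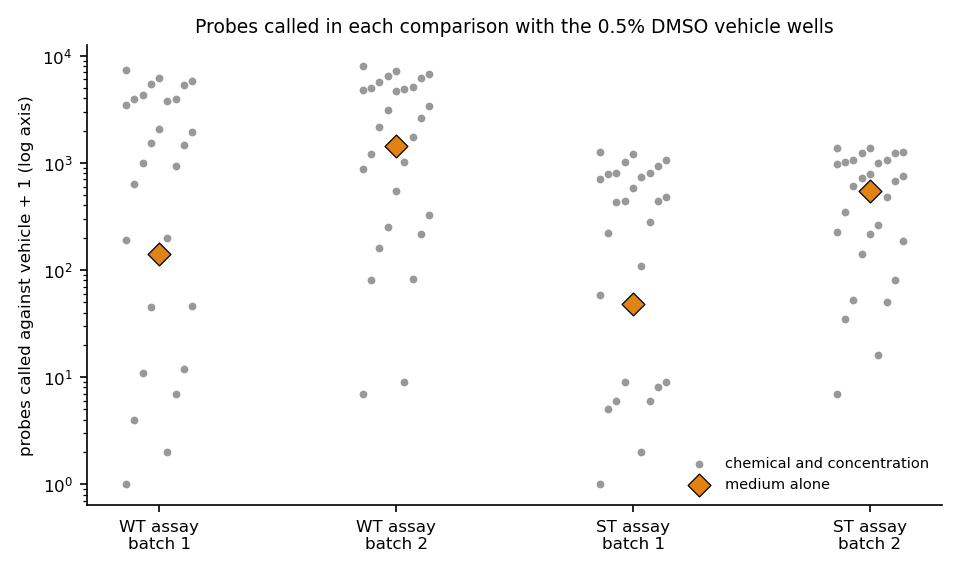
Number of probes called against the vehicle wells plus 1 (y axis, log scale) for 28 combinations of chemical and concentration (grey) and for medium alone (diamond), by assay and batch. The diamond stands at 140 and 1449 probes in the WT assay and at 47 and 539 in the ST assay, within the range of the grey points in each column.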

How the data were processed

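The authors prepared TempO-Seq libraries from lysates of 186 wells per assay, aligned reads to the rat genome rn6 with STAR 2.5.3a, and deposited raw counts per probe and well, without normalization. The members and gene lists used here were chosen with earlier results of these data known. Wells were assigned from their labels, and replicate numbers follow accession order. Probes with a mean of at least 10 counts over both batches were kept, as in the study. Each assay and batch was fitted with all its treatments as groups by the quasi-likelihood test of edgeR 4.0.16 in R 4.3.3 with TMM factors, and the interaction in 1 fit of both batches. SE is the absolute L2FC divided by the square root of F. The authors used DESeq2, which here (version 1.42.0) was an alternative. The script was tested on simulated data. Counting error differs with depth, which was 5492941 reads or more per WT library except for 1 medium well of batch 2.

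Named genes are the 15 probes with the largest increase and the 15 with the largest decrease called in both batches, ranked by the smaller absolute L2FC, every list member called in both, up to 3 further members called in 1 batch, the 1 or 2 most abundant members of lists with no call, the probes with the lowest interaction p and a fixed set of cytochrome P450 and control genes. A few genes that this rule names are not reported here. Of 946 listed genes, 943 symbols were in the RefSeq table (GRCr8), 789 had a WT probe and 694 were tested. Promoter sequences came from a RefSeq table on GRCr8, and no genome file was read. Alternatives were DESeq2, RLE factors, no count filter, a threshold on L2FC, fits of fewer wells, plate as a term, each plate alone, low-concentration wells as the DMSO group, 1 fit of both batches, removal of the 10 most abundant probes and each well left out.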

Additional observations from a re-analysis of the deposited data

Results flagged for a closer look

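The rule for a single stray well was applied to the 60 named probes called in both batches and to total reads, in the medium and vehicle wells of batch 2 with 6 wells each. It marked 5 of 124 groups, where chance marks about 1 in 20. In vehicle wells the highest level was 18.3 CPM for Tmem255b, with 12.6 CPM next, and 21.8 CPM for Slc22a17, with 16.5 CPM next. In medium wells the lowest level was 9.55 CPM for Xirp2, with 13.8 CPM next, and 156 CPM for Acaca, with 185 CPM next. The lowest total was 2289425 reads in a medium well of plate 2, with 6305494 reads next, and without that well 114 of the 118 probes were still called in both batches in the WT assay.

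The response to DMSO differed between the batches by the interaction test for 4 probes of the WT assay. The L2FC of batch 2 minus that of batch 1 was -0.882 for Ahi1, 1.03 for Dbp, -0.552 for Slc20a2 and 0.997 for Acnat1.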

How the results depend on the processing

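No paired analysis was possible because the labels give plate and well positions and no replicate numbers that tie a medium well to a vehicle well. Batch 1 has 3 wells a group, and leaving out 1 well there removes calls that rest on few samples. In the WT assay, calls ranged from 54 to 103 in batch 1, from 1117 to 1420 in batch 2 and from 49 to 119 in both when each well was left out, and calls of the interaction from 0 to 7, with 0 without the third vehicle or the first medium well of batch 1, and 2 without the second vehicle, second medium or last medium well of batch 1 or the second medium well of batch 2. In the ST assay the ranges were 20 to 33, 430 to 569 and 17 to 36.

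An absolute L2FC of at least 1 left 48, 143 and 33 WT calls in batch 1, batch 2 and both, and 19, 52 and 10 ST calls. With only medium and vehicle wells in the fit there were 277 WT calls in batch 1 and 219 in both, of which 109 were among the 118, and 130 and 81 ST calls. Without the count filter, 247 WT probes were called in batch 1, and the share of higher calls went from 19.3% to 32.0%. The higher calls in both batches then went from 21 to 43 in the WT assay and from 12 to 6 in the ST assay. The wells of the lower concentrations of 14 chemicals, which hold the same DMSO, in place of the vehicle wells gave 876, 3644 and 655 WT calls and 245, 946 and 174 ST calls, with more ST calls higher than lower in batch 1 and in both. Of the 118 probes, 105 were called in both batches there, and the cause of the larger counts was not tested. One fit of both batches with batch as a term called 1312 WT and 382 ST probes. In batch 2, plate 2 alone gave 1120 WT and 170 ST calls, and plate 3 alone gave 425 WT and 413 ST calls. DESeq2 called 7 probes for the interaction. The other counts, with DESeq2, RLE factors, plate as a term or without the 10 most abundant probes, were within 1.5 times the main count.

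In batch 2, 5 named genes changed sign with the low-concentration wells as the DMSO group and were no longer called, with L2FC of 0.058 for Mttp, 0.075 for Hsd17b13, 0.24 for Msmo1, -0.012 for Tnfaip2 and 0.14 for Lss. None of the 60 named probes called in both batches changed sign under any alternative.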

Other observations

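Some genes outside the lists, picked after their values were seen, were among the 40 probes called in both batches whichever well was left out. Car3, a carbonic anhydrase of liver and muscle, had L2FC of -1.06 in batch 1 and -1.01 in batch 2. Inhba, which encodes the subunit of the growth factor activin A, had -0.99 and -1.51. Wee1, the kinase that holds cells before mitosis, had -0.76 and -0.94. Aass, the first enzyme of lysine breakdown, had -0.87 and -0.89. Ptgr1, a reductase of eicosanoids, had -0.94 and -0.88, and Spns2, a transporter of sphingosine 1-phosphate, had -1.31 and -1.20. Vasp, an actin polymerization factor, moved least of the 40, with -0.40 and -0.35.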
